A study of Mus musculus with 16 samples.

Results

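Stromal cells of stretched and unstretched mouse skin were compared by bulk RNA sequencing. The comparison uses 8 of the 16 libraries of the series, chosen by their labels alone: the stromal libraries numbered 1 to 4 are controls, and those numbered 5 to 8 are stretched. Stretch was applied as hypobaric pressure, a suction on the skin surface, and cells were taken 6 h later. The controls are stromal cells of skin that was not stretched. Stromal here means sorted by flow cytometry as negative for CD45, the surface protein of leukocytes encoded by *Ptprc*. The other 8 libraries are the CD45-positive immune cells of the same 2 conditions. The labels give mouse skin as the source with no strain, age or sex, and name no transgene, Cre or drug. They do not say whether the libraries come from separate animals, so the p-values below cover the spread among these libraries, which may be technical. The fraction is a mixture of fibroblasts and other non-leukocytes, and in bulk RNA fewer cells of a type and less RNA per cell cannot be told apart.

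Dermal fibroblasts build and remodel the collagen and elastic fibre network of the skin and are attached to it through integrins. They respond to inflammatory cytokines: interleukin-6 family cytokines bind receptors that share the subunit gp130 and act through JAK kinases and STAT3, while interleukin-1 and tumour necrosis factor act through NF-kB, which switches on genes that in turn limit it. The matrix also stores transforming growth factor beta in a latent form, held by latent TGF-beta binding proteins on microfibrils.

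The sort held in all 8 libraries. *Ptprc* was at 0.0644 to 1.302 CPM (counts per 1000000 counts of the library, scaled by TMM) in the stromal controls and at 0.918 to 3.39 CPM in the stretched stromal libraries, against 219.8 to 612 CPM in immune control cells. The fibroblast gene *Dcn*, which encodes the matrix proteoglycan decorin, was at 15120 to 24750 CPM in the controls and 14310 to 24630 CPM in the stretched libraries. The summed level of 26 fibroblast genes was 55840 to 69720 CPM in the controls and 56320 to 74970 CPM in the stretched libraries. Levels summed over several genes, here and below, were divided by total counts alone and not scaled by TMM. They are therefore not on the scale of the CPM of single genes. Several library measures differed between the groups. Total counts were 13563586 to 20467010 in the controls and 21955174 to 26944965 in the stretched libraries, and the number of genes with a read was 23341 to 24109 against 24908 to 35821. Cytosolic ribosomal protein genes took 1.95 to 3.31% of the counts in the controls and 0.980 to 1.76% in the stretched libraries. Genes with over 5000 bases of exon took 27.2 to 29.6% against 33.0 to 37.4%. In each of these 4 measures the groups did not overlap (two-sided exact permutation p = 0.0286, the smallest that 4 against 4 libraries can give). Other measures gave larger p in the same test. These were the shares of pseudogenes (0.0571), mitochondrial (0.514), protein-coding (0.514) and long non-coding genes (0.857), and of the 50 most abundant genes (0.714). The receptor genes named next gave 0.2. No p was adjusted for the number of measures. Stretched libraries 7 and 8 stood apart: reads on 1738 olfactory and vomeronasal receptor genes, mostly silent outside sensory neurons, came to 408 and 200.3 CPM there and to 17.8 to 23.1 CPM in the other 6. Fold changes are therefore also given without libraries 7 and 8 for many, though not all, of the genes and lists below. CPM is not scaled to gene length, so it compares libraries for 1 gene and not genes with each other.

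Of 16074 genes with enough reads, 800 (4.98%) differed between stretched and control at an adjusted p under 0.05 (edgeR's quasi-likelihood test, Benjamini-Hochberg). Of these, 329 (2.05%) were higher in the stretched libraries and 471 (2.93%) were lower. In 2903 genes (18.1%) the 4 stretched values did not overlap the 4 control values, and 787 of the 800 were among them. All 800 had adjusted p-values between 0.0363 and 0.05, so the whole set lies close to the threshold. Without control 1, 2 or 3, or without stretched library 7 or 8, no gene passed, while 3310 to 4340 genes kept an unadjusted p under 0.05. Without stretched library 6 the test called 2 genes, without control 4 it called 719, and without stretched library 5 it called 1589. Without both libraries 7 and 8 edgeR called 0 genes (2263 at an unadjusted p under 0.05) and limma-voom 0 (2513). DESeq2 called 155 higher (0.934%) and 161 lower (0.97%) on the same 6 libraries, and 230 of these 316 were among the 800. The rest of the 800 were not called in that fit. Among genes named below these include *Fbln2* (DESeq2 adjusted p = 0.152), *Spry2* (0.147), *Orai3* (0.132), *Csrnp1* (0.0841), *Pkd1* (0.0833) and *Rpl37a* (0.0521). The median log2 fold change of the higher genes was 0.995 with all libraries and 0.887 without these 2, and that of the lower genes -0.995 and -0.813. Over all genes tested the median was 0.01. A low gene could pass the filter on reads through its higher group alone, so counts over gene lists below are descriptions. They are to be read beside the shares of all genes called, 2.05% higher and 2.93% lower. Positive values were found in 1060 of 4018 tested genes with under 2282 bases of exon and in 7076 of 12053 longer ones.

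In the interleukin-6 family, genes of 2 receptor subunits, a kinase and a transcription factor were higher in the stretched libraries. Of 14 genes of the family tested, 4 (28.6%, beside 2.05% of all genes) rose and none fell: *Osmr*, *Il6st*, *Jak2* and *Stat3*. Positive values were found in 11 of the 14, and the median log2 fold change of the list was 0.48, or 0.63 without libraries 7 and 8, beside 0.01 over all genes. *Osmr* (ENSMUSG00000022146, chromosome 15, 6813577 to 6874969) encodes the receptor subunit for oncostatin M, which pairs with gp130; coordinates here and below are those of GRCm38 in GENCODE M21. Its level was 90.4, 50.96, 64.6 and 80.4 CPM in controls 1 to 4 and 172, 146, 206 and 155 CPM in stretched libraries 5 to 8. The lowest stretched library was well above the highest control, with a log2 fold change of 1.25 ± 0.21 (SE; adjusted p = 0.0424), or 1.14 without libraries 7 and 8. *Il6st* (ENSMUSG00000021756, chromosome 13, 112464070 to 112510086), the gene of gp130 itself, was at 141, 136, 147 and 161 CPM in the controls and 294, 181, 396 and 258 CPM after stretch. The controls lay close together, while the stretched libraries were spread, with library 6 the nearest to the controls and library 7 the highest. The log2 fold change was 0.95 ± 0.23 (adjusted p = 0.0474), or 0.69 without libraries 7 and 8. *Jak2* (ENSMUSG00000024789, chromosome 19, 29251828 to 29313080), a kinase that docks on these receptors, had 46.4, 42.1, 35.7 and 53.3 CPM in the controls and 95.1, 64.2, 95.5 and 96.04 CPM in the stretched libraries. Libraries 5, 7 and 8 were nearly level and library 6 was lower, with a log2 fold change of 0.98 ± 0.19 (adjusted p = 0.0424; 0.83 without 7 and 8). *Stat3* (ENSMUSG00000004040, chromosome 11, 100885098 to 100939540), the transcription factor that the kinases phosphorylate, had 318, 248, 272 and 219.7 CPM in the controls and 487, 516, 509.5 and 485 CPM after stretch. The 4 stretched values lay within a narrow band above all controls, and the log2 fold change was 0.92 ± 0.18 (adjusted p = 0.0424; 0.91 without 7 and 8). In the DESeq2 fit without libraries 7 and 8, *Osmr* (adjusted p = 0.011) and *Stat3* (adjusted p = 0.0124) passed, and *Jak2* (adjusted p = 0.0729) and *Il6st* (adjusted p = 0.128) did not.

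The genes of interleukin-6 itself and of the specific receptors for interleukin-6 and interleukin-11 were not called. *Il6*, the cytokine, had 1227, 441, 639.9 and 1607 CPM in the controls and 1006, 999, 1422 and 1169 CPM in the stretched libraries. The 4 stretched values all lay inside the range of the controls (log2 fold change 0.23 ± 0.36, adjusted p = 0.724). *Il6ra*, the specific receptor for interleukin-6, was at 64.4 ± 15.1 CPM in the controls and 50.1 ± 12.2 CPM after stretch (mean ± SD, n = 4 per group; log2 fold change -0.36 ± 0.23), and *Il11ra1*, the receptor for interleukin-11, at 728 ± 172 CPM in the controls and 448 ± 149 CPM after stretch (-0.70 ± 0.27), and neither passed. *Jak1* was at 336 ± 50.9 CPM in the controls and 445 ± 92.4 CPM after stretch (0.40 ± 0.21, adjusted p = 0.244). *Lifr*, which pairs with gp130 as the receptor for leukaemia inhibitory factor, and *Socs3*, which encodes a feedback inhibitor of this pathway, were looked up after the other values were seen. *Lifr* was at 13.35 CPM in the controls and 25.65 CPM after stretch (log2 fold change 0.94) and *Socs3* at 1275 and 1853 CPM (0.54), without passing.

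**Figure D1:**
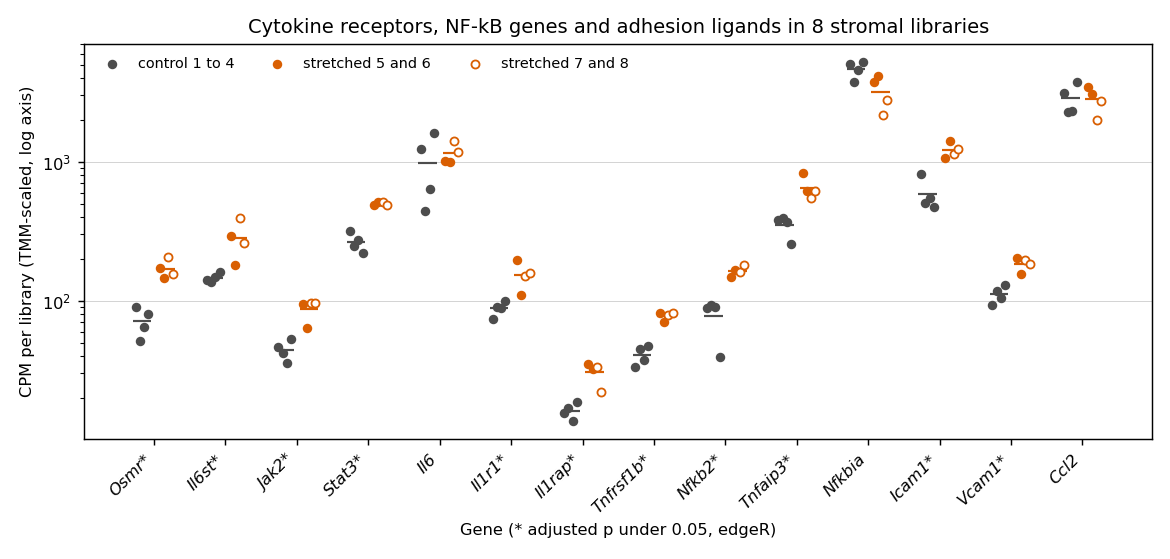
Level of 14 cytokine receptor, NF-kB, adhesion and cytokine genes in the 8 stromal libraries, in CPM on a log axis. Each point is 1 library (grey, controls 1 to 4; filled orange, stretched 5 and 6; open orange, stretched 7 and 8), bars are group means, and an asterisk marks an adjusted p under 0.05. For *Osmr* the 4 stretched libraries sit between 146 and 206 CPM, all above the controls, while for *Il6* and *Ccl2* the groups overlap.

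Genes of 3 receptor subunits for interleukin-1 and tumour necrosis factor also rose. *Il1r1* (ENSMUSG00000026072, chromosome 1, 40225080 to 40317257), the receptor that signals for interleukin-1, had 74.1, 89.5, 88.2 and 100.1 CPM in the controls and 196, 109.5, 149.6 and 158 CPM after stretch. Library 5 was the highest and library 6 stood just above the controls (log2 fold change 0.80 ± 0.20, adjusted p = 0.0485; 0.78 without 7 and 8). *Il1rap*, the co-receptor that it needs, had 15.6, 16.8, 13.5 and 18.6 CPM in the controls and 35.1, 32.2, 33.2 and 21.9 CPM after stretch. Here libraries 5 to 7 were close together and library 8 the lowest, though still above each control (log2 fold change 0.92 ± 0.20, adjusted p = 0.0424; 1.05 without 7 and 8). These were 2 of 13 interleukin-1 family genes tested (15.4%, beside 2.05% of all genes called higher), of which none fell. The decoy receptor *Il1r2* (at 729.5 ± 118 CPM in the controls and 736 ± 245 CPM after stretch) and the adaptor *Myd88* (at 308 ± 78.8 CPM in the controls and 340 ± 54.3 CPM after stretch) were not called. *Tnfrsf1b*, the inducible receptor for tumour necrosis factor, had 33.3, 44.95, 37.2 and 47.3 CPM in the controls and 81.3, 69.9, 79.2 and 81.1 CPM after stretch. The lowest stretched library, 6, was well above control 4, the highest control (log2 fold change 0.94 ± 0.17, adjusted p = 0.0424; 0.88 without 7 and 8). It was the 1 of 16 genes of its list that passed. *Tnfrsf1a*, the more widely expressed receptor, was at 214 ± 83.8 CPM in the controls and 245 ± 105 CPM after stretch (0.19 ± 0.32) and did not pass.

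Of 21 NF-kB subunits and inhibitors tested, 20 had positive values (median log2 fold change of the list 0.57, or 0.47 without libraries 7 and 8). Only *Nfkb2* and *Tnfaip3* passed (9.52%, beside 2.05% of all genes called higher). In 8 genes the stretched libraries lay above all controls, while in 18.1% of all genes the groups did not overlap, in either direction. *Nfkb2*, which encodes a subunit made as a precursor, had 88.4, 93.7, 89.6 and 39.7 CPM in the controls and 148, 166, 161 and 179 CPM after stretch. Control 4 was far below the other controls, and even so each stretched library was above control 2, the highest (log2 fold change 1.07 ± 0.25; 1 without 7 and 8). *Tnfaip3*, the ubiquitin-editing inhibitor A20, had 383, 396, 367 and 256 CPM in the controls and 824, 615, 551 and 616 CPM after stretch, with library 5 the highest (log2 fold change 0.89 ± 0.21; 1.03 without 7 and 8). *Zc3h12a*, an RNase that degrades cytokine transcripts and was listed with other feedback inhibitors, also rose. It had 25.2, 26.01, 20.7 and 14.99 CPM and 39.8, 56.04, 34.2 and 37.8 CPM in the same order. All 4 stretched libraries were above all controls (log2 fold change 0.95 ± 0.23; 1.13 without 7 and 8). *Rela*, the main activating subunit, was at 239 ± 54.3 CPM in the controls and 388 ± 49.5 CPM after stretch and missed the threshold (log2 fold change 0.70 ± 0.21, adjusted p = 0.0735). *Nfkbia*, the inhibitor I-kappa-B alpha, was the exception to the positive values: it had 5012, 3733, 4587 and 5225 CPM in the controls and 3727, 4123, 2152 and 2787 CPM after stretch, which overlap (-0.54 ± 0.26, adjusted p = 0.214).

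The promoters of these genes were searched for the kB consensus, the site read by NF-kB, in the 250 bases before the RefSeq start, which can differ from the outermost gene start, on both strands. Promoter sequences were taken from RefSeq (GRCm38.p6), which held an entry for 11060 of the 16074 genes tested. A match was found in 9 of the 17 NF-kB list genes with a promoter (52.9%) and in 5.70% of all genes tested. Among called higher genes it was found in 12 of 252 (4.76%), a share near that of all genes, and among called lower genes in 5 of 363 (1.38%). Stretches that hold matches are shown for 4 genes that rose, because they let the sites be compared: *Tnfaip3* and *Nfkb2* of the NF-kB list, the receptor gene *Il1r1*, and the matrix enzyme gene *Loxl4* described below. Each is written 5′ to 3′ on the strand of its gene, with the matches in capitals.
Tnfaip3 promoter, chr10:19015411-19015540, minus strand: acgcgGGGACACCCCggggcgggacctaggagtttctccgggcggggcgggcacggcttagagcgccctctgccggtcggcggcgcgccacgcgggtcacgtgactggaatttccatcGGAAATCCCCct
Nfkb2 promoter, chr19:46304677-46304736, plus strand: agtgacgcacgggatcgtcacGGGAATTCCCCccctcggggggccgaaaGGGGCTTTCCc
Il1r1 promoter, chr1:40266339-40266378, plus strand: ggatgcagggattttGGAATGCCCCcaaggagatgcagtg
Loxl4 promoter, chr19:42612925-42612964, minus strand: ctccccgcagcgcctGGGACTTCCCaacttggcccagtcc
*Tnfaip3* holds 2 matches in the stretch shown, and *Il1r1* and *Loxl4* hold 1 each. The *Nfkb2* stretch has 2 runs in capitals, of which the first holds 2 overlapping matches and the second 1. *Nfkb2* has 2 further stretches with 1 match each, before other RefSeq starts, which are not printed. A match is a description of the letters and not of binding.

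Of 11 leukocyte adhesion ligands 2 rose (18.2%, beside 2.05% of all genes tested), while no chemokine or interferon-stimulated gene was called. *Vcam1*, a ligand for leukocyte integrins, had 93.8, 118, 105 and 130.1 CPM in the controls and 203, 156, 196 and 185 CPM after stretch. The lowest stretched value was above the highest control (log2 fold change 0.73 ± 0.17, adjusted p = 0.0466; 0.67 without 7 and 8). *Icam1*, another integrin ligand, was the other one. None of 11 CXC chemokines and none of 13 CC chemokines was called, and 2 of the 13 CC chemokines had positive values (median log2 fold change -0.36, or -0.24 without 7 and 8). *Ccl7*, a monocyte attractant, was at 7113 ± 1859 CPM in the controls and 5920 ± 2241 CPM after stretch, *Ccl2* at 2866 ± 688 CPM in the controls and 2814 ± 611 CPM after stretch and the neutrophil attractant *Cxcl1* at 2496 ± 1492 CPM in the controls and 2617 ± 841 CPM after stretch. None of 30 interferon-stimulated genes was called (median -0.08). In edgeR 0 CXC, 0 CC and 2 interferon-stimulated genes had an unadjusted p under 0.05, DESeq2 called 0, 0 and 2, and limma-voom 0, 1 and 3.

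Immediate early transcription factors, which cells switch on within minutes of a stimulus, had many reads in both groups. *Fos*, an AP-1 subunit, had 9590, 7174, 8871 and 14980 CPM in the controls and 6843, 6301, 8891 and 7204 CPM after stretch, which overlap. *Jun*, its partner, was at 2388 ± 749 CPM in the controls and 2656 ± 695 CPM after stretch and *Egr1*, a zinc finger factor, at 4043 ± 1211 CPM in the controls and 5443 ± 1827 CPM after stretch, and none of the 3 was called (log2 fold changes -0.47 ± 0.28, 0.15 ± 0.28 and 0.43 ± 0.31). Of 14 AP-1 and Atf genes, 1 rose (7.14%, beside 2.05% of all genes called higher): *Mafk*, a small Maf protein that pairs with NRF2 and Bach factors. *Mafk* had 156, 105, 107 and 114 CPM in the controls and 234, 276, 256 and 245 CPM after stretch. Every stretched library was above control 1, the highest control (log2 fold change 1.07 ± 0.18, adjusted p = 0.0424; 1.08 without 7 and 8). *Klf10*, a Kruppel-like factor known as a TGF-beta early response gene, rose from 107 ± 25.8 to 194 ± 12.5 CPM (0.86 ± 0.20; 0.89 without 7 and 8) and was the 1 of 10 Kruppel-like factors called. *Csrnp1*, a nuclear protein with a cysteine and serine rich domain, was among the genes with the most reads that rose, with 347, 293, 284 and 190 CPM in the controls and 559, 449.8, 579 and 638 CPM after stretch. Its groups did not overlap (log2 fold change 0.9985 ± 0.22; 0.85 without 7 and 8). The AP-1 motif TGANTCA, searched on both strands as above, was found in 24 of 252 called higher promoters (9.52%), in 15 of 363 called lower ones (4.13%) and in 5.97% of all genes tested. The *Csrnp1* promoter is shown because it holds 2 matches, in capitals.
Csrnp1 promoter, chr9:119983024-119983133, minus strand: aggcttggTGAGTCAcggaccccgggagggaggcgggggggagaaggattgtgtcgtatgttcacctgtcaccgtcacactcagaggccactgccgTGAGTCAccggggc

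Some genes of matrix assembly were higher, while the main fibrillar collagens were not called. Of 22 elastic fibre and crosslinking genes tested, 4 (18.2%, beside 2.05% of all genes) rose, namely *Loxl4*, *Ltbp4*, *Ltbp3* and *Ltbp1*, and none fell. The median of the list was 0.06, near that of all genes, so the 4 do not stand for the list. *Loxl4* (ENSMUSG00000025185, chromosome 19, 42593982 to 42612813) encodes a lysyl oxidase, an enzyme that crosslinks collagen and elastin, and had the smallest p of all nameable genes. It had 20.1, 20.1, 17.8 and 15.8 CPM in the controls and 57.3, 43.8, 56.6 and 48.6 CPM after stretch. The lowest stretched library was more than 2 times the highest control, with a log2 fold change of 1.48 ± 0.17 (adjusted p = 0.0363), 1.44 without libraries 7 and 8 and 1.32 with offsets for gene length and GC content. It passed in 13 of 21 alternatives, and its DESeq2 adjusted p without libraries 7 and 8 was 5.26e-05. *Ltbp4* (ENSMUSG00000040488, chromosome 7, 27305136 to 27337692), a latent TGF-beta binding protein needed for elastic fibre assembly, had 137, 113, 129 and 92.5 CPM and 218, 212, 373 and 330.5 CPM. Libraries 7 and 8 were higher than 5 and 6, and the log2 fold change of 1.27 ± 0.23 fell to 0.86 without them. *Ltbp1* had 96.95, 91.7, 94.9 and 102 CPM in the controls and 183, 167, 175 and 119.6 CPM after stretch. Here library 8 was the lowest and the nearest to the controls, and the log2 fold change of 0.74 ± 0.18 became 0.85 without 7 and 8. *Ltbp3* had 39.9, 45.7, 46.6 and 38.9 CPM and 63.1, 63.4, 88.3 and 76.3 CPM (0.77 ± 0.17; 0.55 without 7 and 8). Its stretched libraries were all above its controls, with 7 and 8 again the higher pair. Among the other lysyl oxidases, *Lox* was at 193.7 CPM in the controls and 323.7 CPM after stretch (0.74), *Loxl1* at 233.0 and 181.8 CPM (-0.36) and *Loxl2* at 48.99 and 32.45 CPM (-0.59). None of these 3, named after their values were seen, passed.

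TGF-beta itself and its receptors were not called. Of 40 genes of TGF-beta, BMP and activin signalling tested, 32 had positive values (median 0.39, and 0.35 without libraries 7 and 8) and 1 passed (2.5%, beside 2.05% of all genes called higher). That gene was *Skil*, the nuclear repressor SnoN, which is induced by TGF-beta signalling and limits it. *Skil* had 53.4, 38.2, 46.1 and 46.6 CPM in the controls and 108, 79.8, 127 and 109 CPM after stretch. Library 6 was the lowest of the stretched libraries and was still above control 1, the highest control (log2 fold change 1.198 ± 0.19, adjusted p = 0.0424; 1.01 without 7 and 8). *Tgfbr2*, the receptor that binds the ligand, was at 661 ± 110.4 CPM in the controls and 830 ± 252 CPM after stretch (0.33 ± 0.26).

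Other secreted and matrix-modifying genes rose singly. *Fbln2*, the microfibril-associated protein fibulin-2, had 359, 504, 402 and 372 CPM in the controls and 632, 611, 760.3 and 762 CPM after stretch. Control 2 came closest to the stretched libraries (log2 fold change 0.76 ± 0.19; 0.59 without 7 and 8). The aggrecan- and versican-cleaving protease *Adamts4* had 117, 104, 111 and 98.5 CPM and 147, 224, 192 and 165 CPM (0.76 ± 0.18; 0.78 without 7 and 8). *Adamts10*, a protease of fibrillin microfibrils, had 51.8, 44.7, 41.4 and 24.6 CPM and 53.7, 138, 115 and 75.05 CPM. Its groups barely separated, since library 5 was just above control 1 (1.23 ± 0.31; 1.23 without 7 and 8). *Col18a1*, the source of endostatin, was the 1 of 21 collagen chains that rose, from 40.2 ± 9.18 to 76.6 ± 6.11 CPM (0.93 ± 0.19), and *Lamb2*, a basement membrane laminin chain, was the 1 of 11 laminin and nidogen genes that rose, from 124 ± 10.2 to 248 ± 68.8 CPM (1 ± 0.21). *Mmp23*, a membrane-bound metalloproteinase, was the 1 of 11 metalloproteinase and TIMP genes called, and it fell, from 401 ± 29.2 to 245 ± 27.3 CPM (-0.71 ± 0.17). *Col1a1* had 4489, 9434, 6486 and 2280 CPM in the controls and 10540, 8993, 5844 and 5003 CPM after stretch, and *Col3a1* was at 8904 ± 4444 CPM in the controls and 12720 ± 1604 CPM after stretch. The controls of *Col1a1* spanned a wide range that held all but library 5 of the stretched values, and neither gene was called (0.42 ± 0.41 and 0.51 ± 0.34). *Dcn* was not called either (log2 fold change -0.07 ± 0.29, adjusted p = 0.896).

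**Figure D2:**
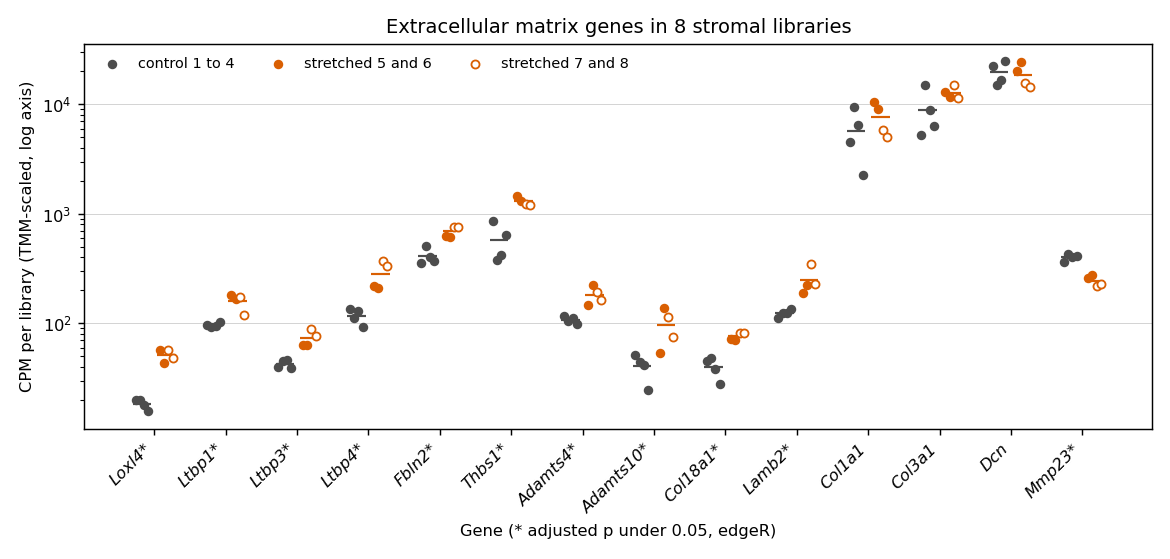
Level of 14 extracellular matrix genes in the 8 stromal libraries, in CPM on a log axis, with points, bars and asterisks as in the plot of cytokine receptor genes. *Loxl4* separates the groups with a gap (controls 15.8 to 20.1 CPM, stretched 43.8 to 57.3 CPM), *Col1a1* and *Dcn* do not separate, and *Mmp23* is lower after stretch.

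Matricellular proteins, which sit in the matrix and signal to cells rather than bear load, had calls close to the threshold. Of 20 tested, 3 (15%, beside 2.05% of all genes) rose and none fell, with a list median of 0.35 (0.25 without libraries 7 and 8). *Thbs1*, thrombospondin-1, which can release TGF-beta from its latent form, had 855, 379, 418 and 647 CPM in the controls and 1468, 1299, 1223 and 1196 CPM after stretch. The stretched libraries were close together and the controls were spread, with control 1 the highest (log2 fold change 1.17 ± 0.27, adjusted p = 0.0461; 1.26 without 7 and 8). *Tnc*, tenascin-C, a glycoprotein of healing wounds, had 7.01, 12.5, 5.99 and 7.55 CPM and 119.7, 17.9, 14.02 and 36.4 CPM. Library 5 was far above the other stretched libraries and library 7 just above control 2 (2.502 ± 0.61; 3.04 without 7 and 8). Over the fits that leave out 1 library, the log2 fold change of *Tnc* ran from 1.45 (without library 5) to 2.83. The third was *Fbln2*, given above. *Thbs2*, thrombospondin-2, was at 842 ± 275 CPM in the controls and 1390 ± 34.02 CPM after stretch and did not pass although its groups did not overlap (0.72 ± 0.25, adjusted p = 0.0946), and *Sparc*, a collagen-binding glycoprotein, was at 12750 ± 3126 CPM in the controls and 8664 ± 4147 CPM after stretch (-0.56 ± 0.37).

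Integrins, the receptors that tie the cytoskeleton to the matrix, had positive values in 15 of 17 genes tested. The list median was 0.67 (0.555 without libraries 7 and 8, and 0.45 with the offsets for length and GC content). Of the 17 genes, 2 rose (11.8%, beside 2.05% of all genes called higher). *Itga5*, the chain that pairs with beta 1 to bind fibronectin, had 125, 205, 159 and 114 CPM in the controls and 294, 344, 239.8 and 326 CPM after stretch. Library 7 was the lowest of the stretched libraries and was above control 2, the highest control (log2 fold change 0.9972 ± 0.22; 1.07 without 7 and 8). *Itgb6*, the beta chain of an epithelial integrin that activates latent TGF-beta, rose at a very low level, with 0.991, 0.369, 0.0644 and 0.282 CPM and 2.91, 2.23, 5.402 and 3.18 CPM (3.03 ± 0.61). *Itgb1*, the shared beta 1 chain, was at 326 ± 64.4 CPM in the controls and 481 ± 73.9 CPM after stretch (0.56 ± 0.21, adjusted p = 0.114) and was not called. Of 28 focal adhesion adaptors, which link integrins to actin, *Vcl* and *Pxn* rose (7.14%, beside 2.05% of all genes called higher) and none fell. The list median was 0.15, and -0.07 with the offsets. *Vcl*, vinculin, had 20.6, 25.4, 24.6 and 13.8 CPM and 45.9, 31.2, 40.8 and 55.8 CPM, with library 6 the nearest to the controls (1.04 ± 0.24; 0.86 without 7 and 8). *Pxn*, paxillin, had 45.04, 50.5, 50.1 and 59.96 CPM and 72.3, 85.6, 86.8 and 88.6 CPM (0.70 ± 0.16; 0.61 without 7 and 8), again with separate groups. *Zyx*, zyxin, was at 241 ± 56.8 CPM in the controls and 207 ± 28.5 CPM after stretch (-0.22 ± 0.21).

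Channels and contractile genes gave single calls in both directions. Of 19 mechanosensitive and calcium channel genes, *Pkd1* and *Pkd2*, whose proteins form the polycystin complex, rose and *Orai3*, a store-operated calcium channel subunit, fell. Called in either direction were 15.8% of these genes, beside 4.98% of all genes tested. *Pkd2* had 67.8, 58.3, 66.3 and 59.6 CPM in the controls and 95.2, 106, 154 and 109 CPM after stretch (0.88 ± 0.18; 0.67 without 7 and 8), and *Pkd1* 17.1, 23.3, 21.01 and 16.96 CPM and 28.8, 41.9, 65.2 and 38.2 CPM (1.15 ± 0.25; 0.84 without 7 and 8). Library 7 was the highest for both. *Orai3* had 27.1, 39.9, 34.4 and 52.9 CPM and 22.5, 19.9, 17.3 and 19.04 CPM (-0.97 ± 0.21; -0.87 without 7 and 8), with control 4 the highest. *Piezo1*, a stretch-gated cation channel, was at 24.6 ± 6.71 CPM in the controls and 37.2 ± 10.4 CPM after stretch with overlapping groups (0.60 ± 0.25, adjusted p = 0.149). None of 28 YAP and TEAD regulators and targets was called by edgeR (7 at an unadjusted p under 0.05), while DESeq2 called 3 higher and limma-voom 6 higher and 1 lower. Their target *Ccn1*, a matricellular protein, was at 6722 ± 675 CPM in the controls and 6566 ± 704 CPM after stretch (-0.03 ± 0.22). Of 23 SRF and smooth muscle contractile genes 1 fell, the myosin light chain *Myl9*, from 224 ± 52.8 to 113 ± 22.1 CPM (-0.99 ± 0.22; -0.99 without 7 and 8). Of 24 tubulins and microtubule binders 2 fell (8.33%, beside 2.93% of all genes called lower) and 18 had negative values (list median -0.25, and -0.22 without 7 and 8). *Tppp3*, a tubulin polymerisation protein, had 1335, 1278, 1911 and 703 CPM and 447, 637, 391 and 566 CPM (-1.36 ± 0.30; -1.28 without 7 and 8). Control 4 was the lowest control and the nearest to the stretched libraries. *Gja1*, connexin 43, the gap junction protein of fibroblasts, had 619, 504, 543 and 531 CPM in the controls and 956, 1132, 1402 and 1189 CPM after stretch. The controls were close together and the stretched libraries all well above them (log2 fold change 1.09 ± 0.19, adjusted p = 0.0424; 0.92 without 7 and 8).

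Genes with the smallest p-values outside these lists were mostly of moderate level. *Hs6st1*, which adds sulphate to heparan sulphate chains and so shapes the binding of growth factors, had 8.92, 9.39, 7.604 and 6.59 CPM in the controls and 21.4, 21.3, 23.8 and 25.2 CPM after stretch. The stretched libraries lay within a narrow band at more than 2 times the highest control (log2 fold change 1.496 ± 0.18, adjusted p = 0.0363; 1.38 without 7 and 8). *Plk3*, a polo-like kinase of the stress response, had 46.4, 43.2, 43.9 and 29.5 CPM and 89.2, 93.2, 101 and 83.9 CPM (1.17 ± 0.18; 1.15 without 7 and 8). *Cd109*, a membrane protein that binds TGF-beta, rose from 17.7 ± 2.597 to 37.9 ± 5.07 CPM (1.097 ± 0.18), *Boc*, a co-receptor for hedgehog ligands, from 16.1 ± 2.66 to 38.5 ± 9.26 CPM (1.26 ± 0.21), and *Crtc2*, a coactivator of CREB, from 26.2 ± 2.39 to 51.2 ± 3.76 CPM (0.97 ± 0.15). In each of these 5 genes all stretched libraries were above all controls, which the naming rule required. Among genes with many reads, *Clic4*, an intracellular chloride channel protein, had 769.9, 657, 648 and 681 CPM in the controls and 1638, 1416, 1574 and 1144 CPM after stretch. Library 8 was the lowest of the stretched libraries and still far above control 1 (log2 fold change 1.07 ± 0.20, adjusted p = 0.0424; 1.14 without 7 and 8; DESeq2 adjusted p without them 5.32e-05). *Mat2a*, which makes S-adenosylmethionine, rose from 570.2 ± 83.7 to 1054 ± 166 CPM (0.89 ± 0.20) and *Sbno2*, a transcriptional coregulator, from 296 ± 101 to 674 ± 204 CPM (1.19 ± 0.29). In the DESeq2 fit without 7 and 8 *Mat2a* passed (adjusted p = 0.019) and *Sbno2* did not (adjusted p = 0.0536).

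Single enzymes of the responses to xenobiotics and oxidants rose. *Cyp1b1*, a target of the aryl hydrocarbon receptor that oxidises steroids and polycyclic compounds, had 41.3, 17.8, 23.4 and 29.1 CPM in the controls and 70.2, 100.5, 103 and 57.8 CPM after stretch. Library 8 was the lowest stretched value and control 1 the highest control, and they did not overlap (log2 fold change 1.57 ± 0.28, adjusted p = 0.0424; 1.605 without 7 and 8). It was called with *Ahrr* among 9 genes of that pathway tested (22.2%, beside 2.05% of all genes called higher). Of the 9 genes, 8 had positive values (median 0.69, and 0.77 without 7 and 8). *Gclc*, the catalytic subunit of the enzyme that limits glutathione synthesis, had 40.5, 35.8, 43.6 and 41.5 CPM in the controls and 79.5, 72.2, 103 and 88.3 CPM after stretch. The controls were tightly grouped and every stretched library was above them (1.09 ± 0.17; 0.90 without 7 and 8). *Txnrd1*, thioredoxin reductase, had 191, 149, 157 and 134 CPM and 298, 281, 313 and 261 CPM (0.87 ± 0.17; 0.86 without 7 and 8). These were the 2 of 20 NRF2 targets and regulators that rose (10%, beside 2.05% of all genes called higher). Positive values were found in 12 of the 20, with a median of 0.13. *Prdx1*, a peroxiredoxin, was at 1070 ± 95.8 CPM in the controls and 733 ± 155 CPM after stretch (-0.55 ± 0.21) and the ferritin chain *Fth1* at 5959 ± 392 CPM in the controls and 4144 ± 1151 CPM after stretch (-0.52 ± 0.25), and neither was called.

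Several genes for receptors and nuclear envelope proteins also rose. *Pdgfrb*, the PDGF receptor of fibroblasts and pericytes, had 112, 77.2, 85.6 and 99.5 CPM in the controls and 174, 182, 156 and 125 CPM after stretch (0.77 ± 0.19; 0.92 without 7 and 8). The Wnt receptors *Fzd1* (from 33.8 ± 4.02 to 57.6 ± 9.31 CPM, 0.77 ± 0.18) and *Fzd8* (from 9.54 ± 1.14 to 19.2 ± 5.81 CPM, 1.01 ± 0.23) rose. They were 2 of 40 Wnt genes tested (5%, beside 2.05% of all genes called higher). Of 14 nuclear lamina and LINC genes, which tie the nucleus to the cytoskeleton, *Sun1* and *Lbr* rose (14.3%, beside 2.05% of all genes called higher). *Sun1*, an inner membrane anchor, had 29.2, 27.9, 28.9 and 25.6 CPM and 39.02, 47.5, 65.8 and 43.2 CPM (0.81 ± 0.19; 0.62 without 7 and 8). *Lbr*, the lamin B receptor, had 19.9, 19.7, 20.04 and 16.8 CPM and 31.4, 31.3, 46.99 and 47.01 CPM (1.04 ± 0.19; 0.70 without 7 and 8). For both genes library 7 was the highest or level with the highest. *Pgf*, placental growth factor, fell from 16.5 ± 5.495 to 7.66 ± 0.689 CPM (-1.104 ± 0.26) and *Angpt2*, angiopoietin-2, rose from 1.99 ± 0.952 to 5.401 ± 0.374 CPM (1.45 ± 0.34), the latter at a low level.

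Of the hypoxia genes 13% were called and of the integrated stress genes 12%, beside 4.98% of all genes tested. Of 23 hypoxia genes, *Kdm3a* and *Stc1* rose and *Higd1a* fell (list median 0.29, and 0.33 without libraries 7 and 8). *Kdm3a*, a histone demethylase, had 33.5, 32.9, 28.1 and 21.2 CPM in the controls and 46.1, 57.6, 81.3 and 62.1 CPM after stretch (1.09 ± 0.22; 0.83 without 7 and 8). *Stc1*, the secreted glycoprotein stanniocalcin-1, had 6.78, 2.27, 2.38 and 3.27 CPM and 15.5, 19.4, 7.31 and 7.12 CPM (1.75 ± 0.44; 2.25 without 7 and 8), with libraries 5 and 6 above 7 and 8 and libraries 7 and 8 just above control 1. Of 25 genes of the integrated stress and unfolded protein responses, *Ppp1r15b*, a phosphatase subunit that restores translation, rose from 72.9 ± 7.63 to 143 ± 25.5 CPM (0.97 ± 0.18) and *Sesn2*, a stress-induced inhibitor of mTORC1, rose from 15.2 ± 4.802 to 29.8 ± 5.03 CPM (0.97 ± 0.25). *Atf5*, a transcription factor of the same response, fell, with 63.9, 37.8, 85.2 and 26.7 CPM and 22.4, 18.98, 5.76 and 14.6 CPM (-1.79 ± 0.44; -1.38 without 7 and 8). *Hspa5*, the main chaperone of the endoplasmic reticulum, was at 1900 ± 764 CPM in the controls and 1933 ± 123 CPM after stretch (0.02 ± 0.27). Of 24 feedback inhibitors and mRNA decay factors 2 rose and 1 fell (12.5% called, beside 4.98% of all genes tested). Those that rose were *Zc3h12a* above and *Zfp36l2*, which binds AU-rich transcripts, from 67.98 ± 3.72 to 116 ± 8.699 CPM (0.77 ± 0.15). *Spry2*, an inhibitor of receptor tyrosine kinase signalling, fell from 31.98 ± 6.61 to 17.3 ± 4.08 CPM (-0.89 ± 0.23). *Csf3*, the granulocyte colony-stimulating factor, was the 1 of 12 colony-stimulating and related cytokine genes called, with 5.41, 2.901, 2.64 and 2.03 CPM and 14.2, 10.7, 6.04 and 8.63 CPM (1.61 ± 0.36; 1.94 without 7 and 8). All its levels were low, with library 5 the highest.

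CLK splicing kinases and transcripts kept in the nucleus or spliced slowly were listed as a group. Of 32 tested, 4 (12.5%, beside 2.05% of all genes) rose and 1 fell (list median 0.11, and 0.17 without libraries 7 and 8). In 10 all stretched libraries lay above all controls, while in 18.1% of all genes the groups did not overlap, in either direction. *Neat1*, the long non-coding RNA of paraspeckles, had 1114, 845, 926 and 745 CPM in the controls and 1423, 1849, 2667 and 1705 CPM after stretch (1.07 ± 0.25; 0.84 without 7 and 8). *Leng8*, of mRNA export, had 26.3, 37.6, 40.1 and 17.98 CPM and 71.8, 89.1, 153 and 137 CPM (1.89 ± 0.31; 1.38 without 7 and 8). Library 7 was the highest in both. *Ccnl2*, a cyclin of splicing speckles, had 229.9, 256, 242 and 227 CPM and 372, 492, 452 and 371 CPM (0.82 ± 0.17; 0.84 without 7 and 8), and *Fnbp4* rose from 48.9 ± 2.602 to 94.8 ± 13.5 CPM (0.95 ± 0.16). *Malat1*, another nuclear non-coding RNA, was at 5593 ± 820.4 CPM in the controls and 3560 ± 792 CPM after stretch (-0.65 ± 0.24, adjusted p = 0.116), and *Ddx17*, an RNA helicase, fell from 89.2 ± 27.4 to 42.1 ± 11.8 CPM (-1.08 ± 0.27).

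Among the lower genes with the most reads were the calcium-binding proteins *S100a6* and *S100a11*, the dynein light chains *Dynll1* and *Dynlrb1*, and *Gabarap*, a ubiquitin-like protein attached to autophagosome membranes. *S100a6* had 2308, 2290, 2431 and 1892 CPM in the controls and 1370, 1094, 669 and 1298 CPM after stretch. Library 7 was the lowest by far and library 5 the highest, and all 4 were below every control (log2 fold change -1.01 ± 0.25, adjusted p = 0.0485; -0.87 without 7 and 8). *S100a11* had 1531, 1679, 1574 and 1849 CPM and 1050, 879, 532 and 883 CPM (-0.99 ± 0.24; -0.79 without 7 and 8). *Selenom*, a selenoprotein of the endoplasmic reticulum, had 508, 506, 532 and 377 CPM and 208, 239, 129.5 and 185 CPM (-1.34 ± 0.22; -1.12 without 7 and 8; DESeq2 adjusted p without them 0.00341). *Lamtor2*, a scaffold that brings mTORC1 to lysosomes, had 128, 138, 126 and 104 CPM and 61.05, 55.8, 32.02 and 57.8 CPM (-1.26 ± 0.22; -1.096 without 7 and 8). In all 4 genes library 7 was the lowest, and libraries 5 and 6 were also below each control. *Hebp2*, a heme-binding protein, was an exception to the place of library 7: it had 52.3, 57.3, 54.8 and 62.7 CPM and 18.2, 27.7, 28.6 and 32.6 CPM, with library 5 the lowest (-1.08 ± 0.19; -1.32 without 7 and 8). Longer genes were among the lower ones too. *Rrbp1*, a ribosome-binding protein of the rough endoplasmic reticulum, fell from 524 ± 113 to 269 ± 74.1 CPM (-0.96 ± 0.24, and -0.71 without 7 and 8). *Serpinb6a*, an intracellular protease inhibitor, fell from 794 ± 176 to 398 ± 83.1 CPM (-0.99 ± 0.24, and -0.81 without 7 and 8). *Rrbp1* (adjusted p = 0.185), *Serpinb6a* (0.13), *Gabarap* (0.119) and *Dynlrb1* (0.0994) did not pass in DESeq2 without 7 and 8. The other genes named in this paragraph did.

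Many genes of the cytosolic and mitochondrial ribosomes and of respiration fell, though in each list fewer than 50% of the members passed in edgeR. DESeq2 called 76 of 80 cytosolic ribosomal, 26 of 42 mitochondrial ribosomal and 54 of 69 oxidative phosphorylation genes lower. In limma-voom 76, 35 and 59 were lower in the same lists. Without libraries 7 and 8 DESeq2 called 4, 3 and 6 of them lower. Of 80 cytosolic ribosomal protein genes, 36 (45%, beside 2.93% of all genes tested) fell in edgeR and 1 had a positive value. In 71 all stretched libraries lay below all controls, while in 18.1% of all genes the groups did not overlap, in either direction. Their median log2 fold change was -1.02, or -0.72 without libraries 7 and 8. *Rpl37a*, a large subunit protein, had 895, 544, 671 and 492 CPM in the controls and 293, 360.5, 178 and 279 CPM after stretch. Control 1 was well above the other controls and library 7 the lowest of all (log2 fold change -1.23 ± 0.27; -1.004 without 7 and 8). Many ribosomal protein genes have processed copies in the genome, and how reads shared with them were counted is not given in the sources used here, so single members are uncertain. The mitochondrial ribosome, made of other genes, showed the same direction: of 42 genes 15 (35.7%) fell and 0 had a positive value, with a median of -0.82 (-0.595 without 7 and 8). *Mrps21*, of its small subunit, had 96.3, 109, 117 and 80.4 CPM and 47.3, 54.2, 29.4 and 47.9 CPM (-1.17 ± 0.21; -1.002 without 7 and 8). *Mrpl34*, of its large subunit, had 31.2, 30.4, 30.8 and 39.7 CPM and 14.8, 17.2, 9.38 and 15.3 CPM (-1.22 ± 0.21; -1.05 without 7 and 8). For both, the highest stretched library was far below the lowest control.

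Of 69 nuclear genes of oxidative phosphorylation tested, 33 (47.8%, beside 2.93% of all genes) fell and 2 had positive values. The median of the list was -0.91 (-0.70 without libraries 7 and 8). *Ndufa13*, an accessory subunit of complex I, had 237, 263, 288 and 172 CPM in the controls and 127, 111, 61.4 and 109 CPM after stretch (-1.23 ± 0.25; -1.02 without 7 and 8). *Cox8a*, a small subunit of complex IV, had 306, 276, 306 and 208 CPM and 149, 147, 83.97 and 135 CPM (-1.09 ± 0.23; -0.90 without 7 and 8). Control 4 was the lowest control for both and remained above the highest stretched library. Genes of 2 large subunits of ATP synthase did not follow, with *Atp5a1* at 592 ± 90.2 CPM in the controls and 512 ± 118 CPM after stretch (-0.21 ± 0.22) and *Atp5b* at 925 ± 121 CPM in the controls and 801 ± 184 CPM after stretch (-0.21 ± 0.22), neither called. None of 13 mitochondrially encoded transcripts tested was called by edgeR (0 at an unadjusted p under 0.05) or DESeq2, and limma-voom called 1. Their median was -0.36 with all libraries and 0.10 without libraries 7 and 8. With the offsets for length and GC content on all 8 libraries it was 0.02, so the sign of this list turns under both alternatives.

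Some genes that deliver proteins to the endoplasmic reticulum fell. Of 28 translocation and signal peptidase genes, 7 (25.0%, beside 2.93% of all genes) fell and none rose (median -0.56, or -0.41 without 7 and 8). *Srp14*, of the signal recognition particle, had 193, 178, 190.4 and 203 CPM in the controls and 115, 119.9, 69.9 and 98.95 CPM after stretch (-0.92 ± 0.19; -0.71 without 7 and 8). *Ost4*, a small subunit of the oligosaccharyltransferase, had 37.6, 52.1, 43.4 and 37.8 CPM and 25.3, 20.5, 17.8 and 26.1 CPM (-0.93 ± 0.19; -0.91 without 7 and 8). In both genes the groups did not overlap. The channel's pore subunit *Sec61a1* was at 173.1 CPM in the controls and 207.0 CPM after stretch (0.26), a value chosen after it was seen. Of 24 Mediator, RNA polymerase II and elongation genes, *Polr2i*, *Polr2e* and *Polr2k*, which encode small polymerase subunits, fell, and *Med12*, of the Mediator kinase module, rose. *Polr2i* had 42.9, 41.3, 47.4 and 37.8 CPM and 24.4, 22.1, 12.8 and 20.4 CPM (-1.09 ± 0.21; -0.88 without 7 and 8). *Med12* had 4.04, 5.38, 4.51 and 3.66 CPM and 8.95, 10.7, 20.02 and 11.9 CPM (1.55 ± 0.29; 1.14 without 7 and 8), with library 7 the highest. Of 34 proteasome subunits 1 fell in edgeR (median -0.53, and -0.33 without 7 and 8), and of 33 translation factors 1 fell (median -0.51, and -0.21 without 7 and 8). DESeq2 called 9 proteasome subunits and 8 translation factors lower, and limma-voom 20 and 15, with 1 translation factor higher. Without 7 and 8 DESeq2 called 0 in either list.

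**Figure D3:**
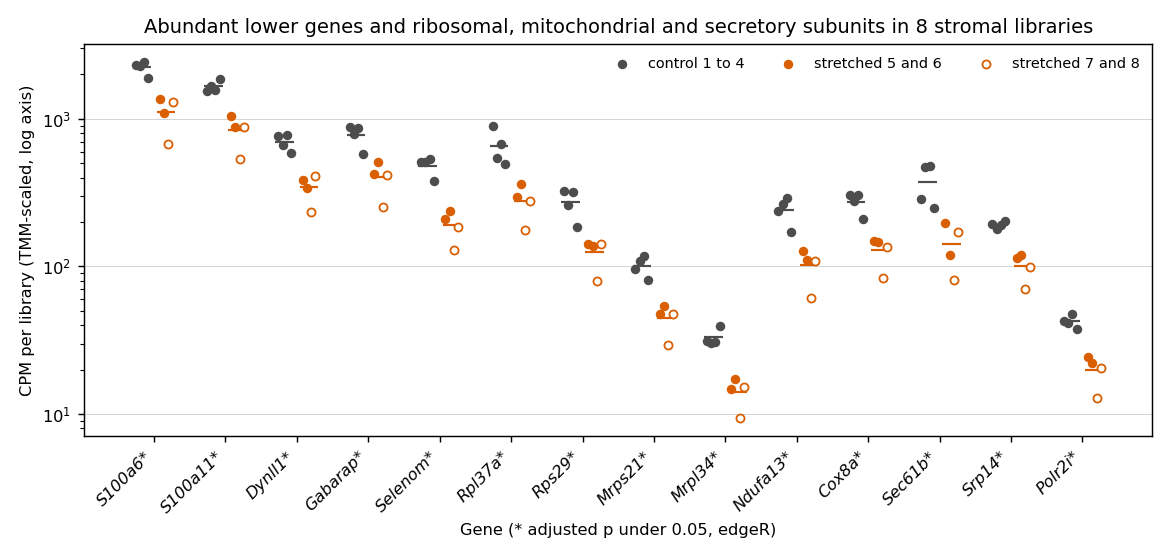
Level of 14 genes that fell, in the 8 stromal libraries, in CPM on a log axis, with points, bars and asterisks as in the plot of cytokine receptor genes. The 4 stretched libraries lie below the 4 controls for each gene, and stretched library 7 is the lowest of the stretched libraries for each gene drawn.

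The fold change followed gene length over all genes. In the shortest of 4 equal groups of tested genes (exon length 56 to 2281 bases) the median log2 fold change was -0.42, with 17 genes called higher and 304 lower. In the next groups it was -0.08, 0.17 and 0.23, and in the longest (6349 to 123179 bases) 149 were called higher and 27 lower. Without libraries 7 and 8 the medians were -0.31, -0.07, 0.09 and 0.11. The median exon length was 5985 bases in called higher genes, 1734 in called lower genes and 3946 in all tested. A fit with offsets for exon length and GC content left medians of -0.13, -0.09, -0.01 and -0.03 and called 4 genes (3 higher and 1 lower; 3678 genes had an unadjusted p under 0.05). Single genes moved in either direction in that fit. The log2 fold change became 0.98 for *Osmr*, 0.65 for *Stat3*, 1.001 for *Gclc*, -1.096 for *Selenom* and -0.97 for *Rpl37a*, all nearer to 0. It became 1.24 for *Plk3*, -1.19 for *Hebp2*, -1.16 for *Serpinb6a* and -1.23 for *Rrbp1*, all farther from 0, and for *Ccn1*, which was not called, it changed sign, to 0.14.

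Length was also compared within lists. Of the 80 cytosolic ribosomal protein genes, the 51 with an exon length under 2282 bases had a median of -1.04 and the 29 longer ones -0.96. With the offsets the medians were -0.725 and -0.95, so both classes stayed well below the median of all genes of their class (-0.13 and -0.04). For the mitochondrial ribosome they were -0.86 in 22 short and -0.73 in 20 longer genes, and -0.61 and -0.81 with the offsets. For oxidative phosphorylation they were -0.955 in 49 short and -0.53 in 20 longer genes, and -0.64 and -0.67 with the offsets. For translocation the difference was wider, -0.88 in 6 short and -0.20 in 22 longer genes, and for Mediator and polymerase genes the classes had opposite signs, -0.88 in 5 short and 0.33 in 19 longer genes. With the offsets these became -0.575 and -0.41 for translocation, and -0.48 and 0.04 for Mediator and polymerase genes. Among lists with called higher genes, the offsets moved the median from 0.67 to 0.45 for integrins and from 0.35 to 0.09 for matricellular proteins. It went from 0.57 to 0.42 for NF-kB genes and from 0.48 to 0.415 for the interleukin-6 family. The sign turned, for example, for elastic fibre genes (0.06 to -0.09) and CLK kinases and nuclear-retained transcripts (0.11 to -0.13). Over all longer genes the median was 0.11, and -0.04 with the offsets.

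**Figure D4:**
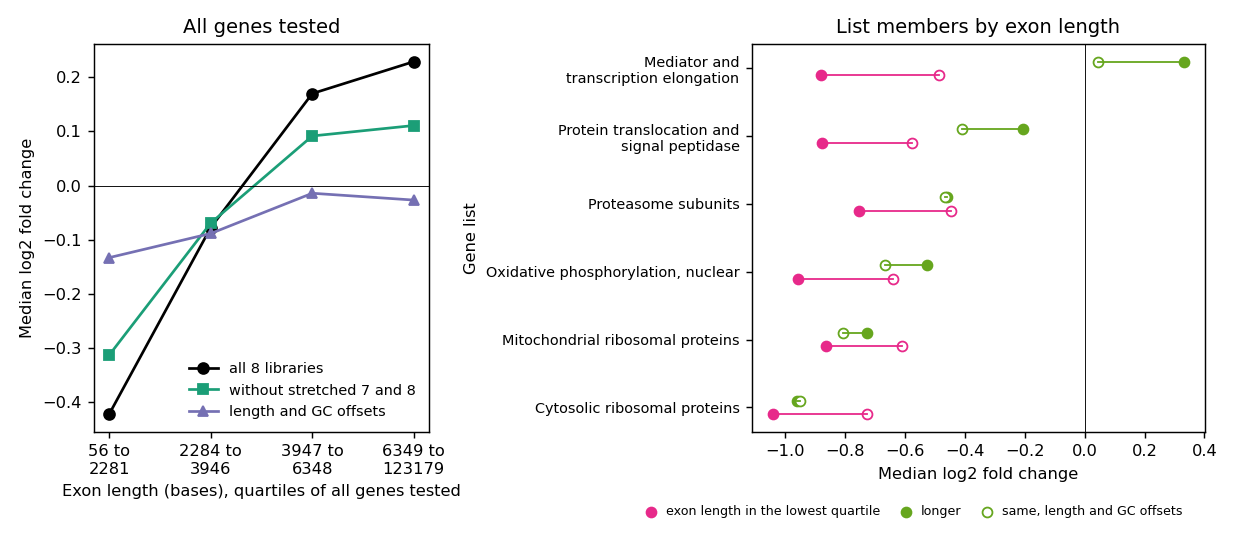
Median log2 fold change (stretched minus control) by exon length. Left, 4 equal groups of all genes tested by length, with all 8 libraries (black), without stretched 7 and 8 (green) and with length and GC offsets (violet); the black line climbs from -0.42 to 0.23. Right, members of 6 lists split at 2282 bases (pink, shorter; green, longer), without (filled) and with (open) the offsets; for ribosomal and oxidative phosphorylation genes both classes stay below -0.5.

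Markers of cell types that a CD45-negative sort can hold were checked beside these results. Of 17 leukocyte markers tested none was called (edgeR; 0 at an unadjusted p under 0.05, 0 called by DESeq2 and 2 by limma-voom), and their summed level was 75.6 to 168 CPM in the controls and 77.6 to 213 CPM after stretch. Among 29 skeletal muscle genes 7 rose (24.1%, beside 2.05% of all genes) and 26 had positive values (median 0.71 with and without libraries 7 and 8). Their summed level was 837 to 1967 CPM in the controls and 1468 to 3006 CPM after stretch. Among 14 desmosome genes of keratinocytes none was called by edgeR (6 at an unadjusted p under 0.05, 4 called by DESeq2 and 8 by limma-voom). Their median was 1.14 (0.87 without 7 and 8), with a summed level of 50.7 to 408.5 CPM against 189.8 to 477 CPM. Among 21 blood endothelial genes none was called by edgeR (4 at an unadjusted p under 0.05, 0 called by DESeq2 and 2 by limma-voom). Their median was 0.63 (0.83 without 7 and 8), with sums of 155 to 424 CPM against 249.9 to 456 CPM. Among 12 lymphatic endothelial genes none was called by edgeR (4 at an unadjusted p under 0.05, 3 called by DESeq2 and 0 by limma-voom). Their median was 0.755 (0.91 without 7 and 8), with sums of 224 to 279.8 CPM against 242 to 489.6 CPM. Among 14 genes of basal keratinocytes none was called by edgeR (3 at an unadjusted p under 0.05, 2 called by DESeq2 and 4 by limma-voom), with a median of 0.845 (0.55 without 7 and 8) and sums of 278 to 1571 CPM against 752 to 1617 CPM. Among 12 hair follicle genes 3 rose (25.0%, beside 2.05% of all genes) and 11 had positive values. The median was 0.98 (0.69 without 7 and 8), with sums of 1464 to 2197 CPM against 1492 to 2353 CPM. *Krt35*, a hair keratin, had 1.14, 0.633, 0.129 and 0 CPM in the controls and 3.77, 8.24, 0.715 and 49.03 CPM after stretch (5.06 ± 1.28; 3.67 without 7 and 8), and *Tchh*, trichohyalin of the inner root sheath, 0.762, 0.686, 0.967 and 0.451 CPM and 1.499, 2.27, 4.49 and 7.88 CPM (2.495 ± 0.54; 1.38 without 7 and 8). Library 8 was the highest for both, and for *Krt35* library 7 lay within the range of the controls. The third was *Lrig1*, an inhibitor of EGF receptor signalling, which the fibroblast list holds too. Among 26 fibroblast markers 2 rose in edgeR, *Pdgfrb* and *Lrig1*, and none was called lower, while 16 had negative values. Of the 26, 11 had an unadjusted p under 0.05. DESeq2 called 2 higher and 3 lower, and limma-voom 3 higher and 6 lower. The median was -0.10 (-0.21 without 7 and 8). The part of these cell types in the called genes was not tested.

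**Figure D5:**
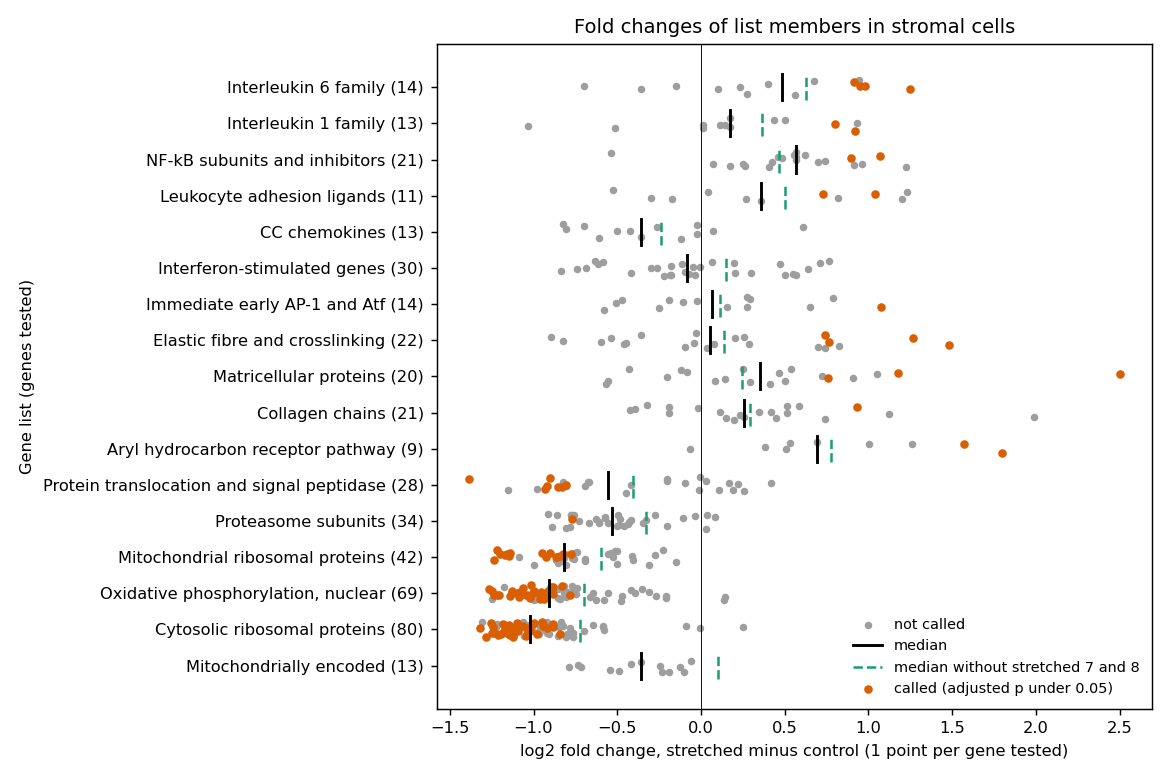
Log2 fold change (stretched minus control) of each tested member of 17 gene lists; orange points passed an adjusted p under 0.05, black bars are list medians and dashed green bars the medians without stretched libraries 7 and 8. Ribosomal and respiratory lists lie to the left (medians -1.02 to -0.82), interleukin-6 and NF-kB lists to the right (0.48 and 0.57), and the green bar of the mitochondrially encoded list falls on the other side of 0.

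The stretch effect was set beside that in the immune libraries in a fit over all 16 libraries. No gene of 18295 passed the test of the difference (0.0%; smallest adjusted p = 0.0573, 4232 genes at an unadjusted p under 0.05), while DESeq2 called 1610. Nothing described above is therefore shown by edgeR to be particular to stromal cells. Of 85 named genes that rose in stromal cells, 61 had positive values in immune cells, and of 64 that fell, 35 had negative values there. These genes were named by their stromal values, and the share over all genes was not taken. Whether the fractions share a response was therefore not tested by these counts. *Loxl4* had a log2 fold change of 1.48 in stromal and 1.76 in immune cells, *Nfkb2* 1.07 and 0.94, and *Clic4* 1.07 and 1.09. *Osmr* had 1.25 in stromal and -0.09 in immune cells (adjusted p of the difference = 0.171) and *Il6st* 0.95 and -0.48 (adjusted p = 0.107). *Selenom* had -1.34 and 0.50 (adjusted p = 0.0989), and *S100a11* -0.99 and 0.87 (adjusted p = 0.161). In these 4 genes the signs differ and the test of the difference did not pass.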

How the data were processed

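The values are raw read counts, 1 row for each Ensembl gene ID, which the authors deposited unnormalized in 1 table for the 16 libraries. Per the labels' protocols, cells were sorted by flow cytometry on CD45. Per the submitters' processing notes, FastQC 0.11.9 and STAR were used with the mm10 build. For the counting tool, its strand setting and the annotation release, the entry is: not given in the sources used here. Of 55487 gene IDs, 55394 matched GENCODE M21, which gave symbols, positions and exon lengths.

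From these counts, genes were kept with filterByExpr of edgeR 4.0.16 (R 4.3.3, minimum count 10, minimum total 15), scaled by TMM (over all 16 libraries only for *Ptprc* and *Dcn* as checks of the sort) and tested by edgeR's quasi-likelihood F test between the 4 stretched and 4 control stromal libraries, with Benjamini-Hochberg adjustment over all 16074 genes and a threshold of 0.05. The values after ± are SE for log2 fold changes and SD for CPM. Levels summed over gene lists or receptor genes were not scaled by TMM. The difference from the immune libraries was tested as an interaction over all 16 libraries. Total counts per stromal library were 13563586 to 26944965, so depth differed between the groups and a fit on counts thinned to 13563586 was an alternative. The others were DESeq2 1.42.0, limma-voom (limma 3.58.1) with quality weights, other scale factors, filters, covariates, offsets (natural splines of exon length and GC content, 4 degrees of freedom, prior count 2), and libraries left out. Pairs of libraries within a stromal group differed by more than sampling noise (chi-square per degree of freedom 28.1 to 136), so none was counted as a repeat sequencing of another. This comparison cannot show whether the libraries come from separate animals. The tests were also run on counts simulated with the depths, means and spread of the stromal libraries. Promoters came from RefSeq (GRCm38.p6).

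The genes described are a subset of those named by a fixed rule: the 15 called genes per direction with the smallest p and the 12 with the highest mean CPM, both without overlap between groups, and for each of 82 gene lists up to 6 called members with the smallest p and up to 4 others with the highest CPM. Predicted genes, pseudogenes and antigen receptor segments were left out, and 3 list symbols were not in the annotation. The comparison and the lists were chosen with earlier results of these data known, so counts over lists carry no p-value.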

Additional observations from a re-analysis of the deposited data

Results flagged for a closer look

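In 286 groups of 4 stromal libraries (the genes described and the library measures), 15 held 1 library whose gap to the next, divided by the range of its group, was over the 95% critical value of Dixon's test. Chance alone gives this in about 1 in 20 groups. Control 4 was the library that stood apart in 8 of them. It was the highest control for *Cxcl1* (4718 CPM, others 1542 to 1977), *Hspa5* (3046 CPM, others 1485 to 1557), *Jun* (3505 CPM, others 1945 to 2120), *Tnfrsf1a* (338.6 CPM, others 161 to 187) and *Mrpl34* (39.67 CPM, others 30.4 to 31.2). It was the lowest control for *Nfkb2* (39.67 CPM, others 88.4 to 93.7), *Lbr* (16.79 CPM, others 19.73 to 20.04) and *Selenom* (376.6 CPM, others 506 to 532). Control 1 was apart for *Mafk*, at 155.6 CPM with the others at 105 to 114 CPM. Among the stretched libraries, library 6 was the lowest for *Jak2* (64.15 CPM, others 95.1 to 96.0) and the highest for *Thbs2* (1441 CPM, others 1372 to 1375) and *Lifr* (28.69 CPM, others 24.4 to 24.8), and library 7 was the highest for *Ptprc* (3.456 CPM scaled over the 8 stromal libraries, others 0.908 to 1.27). Library 8 was the highest for *Krt35*, at 49.03 CPM with the others at 0.715 to 8.24 CPM. Control 2 had the lowest summed level of olfactory and vomeronasal receptor genes among the controls, 17.81 CPM with the others at 22.2 to 22.7 CPM.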

How the results depend on the processing

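The 149 named called genes kept their call in 6 to 13 of 21 alternatives. Their sign is no sign of stability, since in 787 of the 800 called genes the groups do not overlap. The counts stayed within 1.5 times the 800 with RLE scale factors (677), upper-quartile scale factors (1087), a robust fit (927) and counts thinned to the shallowest library (972). DESeq2 called 2274 genes (997 higher, 1277 lower), limma-voom with quality weights 3599 (1560 higher, 2039 lower), no filter 2115 (1232 higher, 883 lower) and a filter of at least 50 reads in at least 4 libraries 1378 (535 higher, 843 lower). A single fit over all 16 libraries called 0 (2996 genes at an unadjusted p under 0.05), a covariate for detected genes 1 (1 higher, 0 lower), and length and GC offsets 4 (3 higher, 1 lower). Leaving out 1 library gave 0 to 1589 called, 0 to 558 higher and 0 to 1031 lower. Without stretched libraries 5 and 6 the count was 3105 (1578 higher, 1527 lower) and without 7 and 8 it was 0. Chosen after seeing the data, DESeq2 without 7 and 8 called 316 (155 higher, 161 lower) and limma-voom 0. The difference between stromal and immune effects had 0 genes with edgeR, 1610 with DESeq2 and 3924 with no filter. The cause of these shifts was not tested. Of list medians, 1611 values under alternatives moved by less than the spread and 111 by more. No paired analysis was possible because no replicate number in the labels occurs in both stromal groups.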
